A study of Homo sapiens with 15 samples.

Results

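The CHMP genes encode the charged multivesicular body proteins, the subunits of the ESCRT-III membrane-remodelling complex. The 10 genes CHMP1A, CHMP1B, CHMP2A, CHMP2B, CHMP3, CHMP4A, CHMP4B, CHMP4C, CHMP5 and CHMP6 were taken by symbol from a table of 19966 genes. The family was chosen by the FPKM of CHMP6 in starved against fed cells, where it had one of the largest falls, so the members' values in starved against fed cells are given as a description, without a test, and CHMP6 is tested in no comparison. RNA was sequenced from 293T cells, a line from human embryonic kidney that expresses the large T antigen of SV40, in 3 groups of 3 libraries. Knockdown cells had SRSF1 knocked down and were kept without serum for 12 h. Starved cells were wild type and were kept without serum for 12 h. Fed cells were wild type, with 0 h of starvation, in medium with fetal bovine serum. Of the 15 samples in the series, 6 have a knockdown of SRPK1 or UPF1 and are not analysed here. The labels name no library with a non-targeting knockdown control, and there was no SRSF1 knockdown in fed cells, so knockdown against fed cells changes the gene and the serum together.

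ESCRT-III subunits are small soluble proteins that assemble on a membrane into filaments and narrow its neck from the inside until it is cut. The same machinery forms the inner vesicles of multivesicular endosomes, which carry receptors to the lysosome, and it also acts in the last step of cell division, in resealing of the nuclear envelope and in budding of some viruses. Assembly runs in an order: ESCRT-II binds CHMP6, CHMP6 starts a CHMP4 filament, CHMP3 and CHMP2 proteins cap and remodel it, CHMP1 proteins and CHMP5 regulate its turnover, and the ATPase VPS4 takes the subunits apart.

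The first 90 coding bases of CHMP3, CHMP2A and CHMP4B are printed as examples from the members whose libraries in starved cells did not overlap those of fed cells. They are read 5′ to 3′ on the coding strand from GENCODE transcripts on GRCh38, and capitals mark the start codon.
CHMP3: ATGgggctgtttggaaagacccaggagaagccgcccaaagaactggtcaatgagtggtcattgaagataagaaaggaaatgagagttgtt
CHMP2A: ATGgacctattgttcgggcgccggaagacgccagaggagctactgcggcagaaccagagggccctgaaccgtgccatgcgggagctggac
CHMP4B: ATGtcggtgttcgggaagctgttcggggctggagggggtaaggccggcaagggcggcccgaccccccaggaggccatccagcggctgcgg
The human CHMP6 protein is known to be held on membranes by a myristoyl group at its start. Whole coding sequences of the family were far apart: CHMP6 matched the other 9 genes at 45.5% to 52.1% of aligned positions, gaps counted as mismatches. The closest pairs were CHMP4B with CHMP4C at 64.9% and CHMP1A with CHMP1B at 62.5%. Over 50-base windows, no window was shared between any 2 members, so reads of that length that match exactly could not have been split between family members.

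Libraries held 11775367 to 15231651 reads in genes, and levels are given as FPKM, which is fragments per kilobase of gene model, scaled by the library's total. Of the 19966 genes, 11133 reached 1 FPKM in at least 3 libraries and were kept. Among the kept genes, log2 levels of knockdown replicate 3 correlated with the other knockdown libraries at 0.976 and 0.969, while all other pairs within a group correlated at 0.987 to 0.996. Counts of members and of other ESCRT genes that passed, and the calls that changed, are therefore also given without that library. The targeted gene SRSF1 was at 31.19, 31.51 and 30.40 FPKM in knockdown cells, 42.07, 37.78 and 40.04 FPKM in starved cells, and 34.35, 32.83 and 31.72 FPKM in fed cells. In knockdown cells SRSF1 was 21.7% below starved cells (log2 fold change -0.35 ± 0.07 (SE), adjusted p = 0.00343, limma with Benjamini-Hochberg adjustment over the kept genes), and it did not pass the test against fed cells (-0.08 ± 0.07, adjusted p = 0.455). In starved cells SRSF1 was 20.6% above fed cells (0.27 ± 0.07, adjusted p = 0.0151, limma). This call was lost without fed replicate 2, fed replicate 3 or starved replicate 1. Of 7 markers of kidney-derived epithelium, 5 were kept, with KRT8 at a median of 15.0 FPKM and PAX2 and EPCAM below the filter. Of 5 markers of mature tubule, LRP2 was kept, at a median of 2.18 FPKM, and UMOD was at 0 in all libraries. All 4 neural-like genes known in the 293 line were kept, with VIM highest at a median of 39.5 FPKM, above every marker of kidney-derived epithelium. Of 5 markers of other cell types, COL1A1 alone was kept, at a median of 3.35 FPKM, and CD3E was at 0. Nothing in the labels says whether replicates were separate cultures, so each p-value reflects the spread of these libraries alone, and that may be technical spread.

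CHMP6, the subunit that links ESCRT-II to the ESCRT-III filament, was low in starved cells and stood near its fed level in knockdown cells. CHMP6 (ENSG00000176108) lies on chromosome 17 from 80991598 to 81009517 on the plus strand, and its longest coding transcript has 8 exons. It was at 8.78, 9.24 and 7.99 FPKM in knockdown cells, 1.17, 1.71 and 1.35 FPKM in starved cells, and 9.24, 9.40 and 10.00 FPKM in fed cells. All 3 starved libraries lay far below the other 6, and the knockdown and fed libraries met at 9.24 FPKM. In recovered reads the knockdown libraries held 219, 298 and 222, starved replicates 2 and 3 held 48 and 34, and the fed libraries held 283, 271 and 322. Mean levels were 8.67 ± 0.63 FPKM in knockdown cells, 1.41 ± 0.28 FPKM in starved cells and 9.54 ± 0.40 FPKM in fed cells (SD, n = 3 each).

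The knockdown mean of CHMP6 was 6.15 times the starved mean and 0.91 times the fed mean, and the fed mean was 6.77 times the starved mean. On the scale of log2(FPKM + 1), which understates changes of low genes, the difference of starved from fed cells was -2.14. This was rank 6 among falls of the 11133 kept genes, next to ASB13 at -2.16 and ZNF22 at -2.02. The difference of knockdown from starved cells was 2.01, and that of knockdown from fed cells was -0.13. These differences share the libraries that picked the gene and have no test. In whole-culture RNA, fewer cells that express a gene and less of its RNA per cell cannot be told apart. Of the 50-base windows of the CHMP6 transcript, 21.6% also occur in other annotated genes, through the antisense gene AC127496.6, which has no row in the table. Strand use in counting was not given in the sources used here, so reads of the antisense gene within those 455 exon bases could not be told apart from those of CHMP6.

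**Figure D1:**
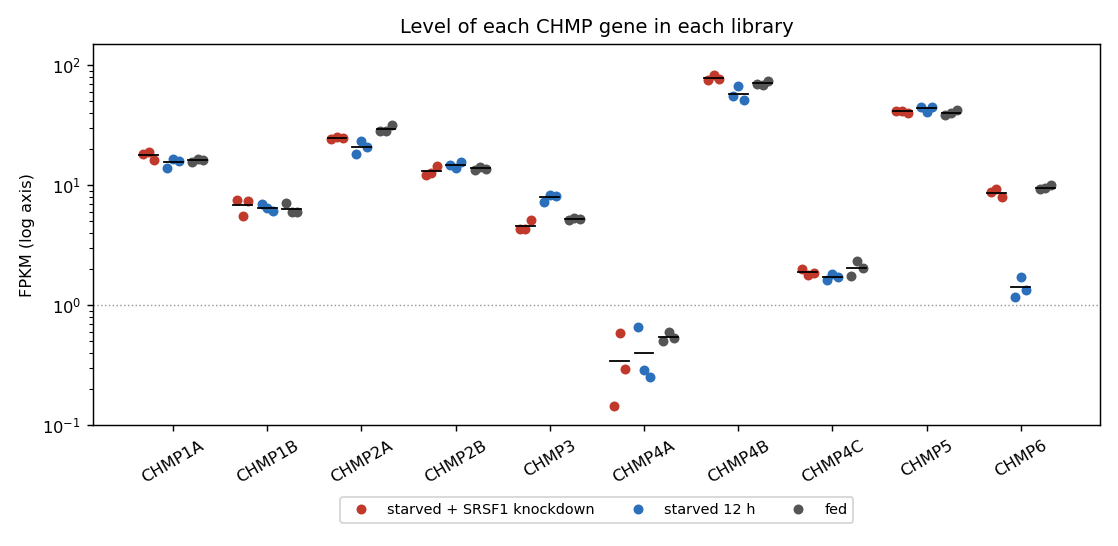
FPKM of each CHMP gene in each library on a log axis, with knockdown, starved and fed libraries from left to right within a gene and a bar at each group's mean; the dotted line is the filter at 1 FPKM. The 3 starved libraries of CHMP6 sit between 1.17 and 1.71 FPKM, below its other 6 libraries at 7.99 to 10.00 FPKM, and CHMP3 shows the opposite order.

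CHMP3, which caps the CHMP4 filament together with CHMP2 proteins, ran the other way and was highest in starved cells. CHMP3 (ENSG00000115561, chromosome 2 from 86503430 to 86563479, minus strand) was at 4.27, 4.30 and 5.11 FPKM in knockdown cells, 7.31, 8.20 and 8.18 FPKM in starved cells, and 5.14, 5.29 and 5.19 FPKM in fed cells. The 3 starved libraries were above all others, and the knockdown libraries lay just under the fed ones. By limma with Benjamini-Hochberg adjustment CHMP3 fell in knockdown against starved cells (log2 fold change -0.68 ± 0.09 (SE), 95% interval -0.87 to -0.48, adjusted p = 0.000183). The adjusted p stayed between 7.04e-05 and 0.00203 in all 20 alternatives, including edgeR on recovered reads of 8 libraries, run without starved replicate 1. Against fed cells the change did not pass (-0.16 ± 0.09, adjusted p = 0.221, limma), with an interval of -0.36 to 0.03. The starved mean lay 0.52 above the fed mean on the log2 scale, without a test. Of its 50-base windows, 24.4% were shared with other genes. The read-through gene RNF103-CHMP3 held 712 of those 761 windows, and its own row had at most 10.0 normalized counts.

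In the ratio of normalized counts, CHMP3 to CHMP6 was 1.76 ± 0.32 in knockdown cells, 18.9 ± 2.62 in starved cells and 1.81 ± 0.08 in fed cells (SD, n = 3 each). A ratio within a library does not depend on the scaling between libraries. It shows unequal change of the pair, and since it contains CHMP6 it is a description.

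The CHMP4 proteins form the body of the filament, and CHMP4B was the most abundant CHMP mRNA. CHMP4B (ENSG00000101421, chromosome 20 from 33811348 to 33854366, plus strand) was at 75.49, 83.19 and 76.89 FPKM in knockdown cells, 54.93, 67.42 and 51.25 FPKM in starved cells, and 70.06, 67.82 and 74.22 FPKM in fed cells. Every knockdown library was above every other library, and starved replicate 2 lay just under the lowest fed library. CHMP4B was higher in knockdown than in starved cells by limma with Benjamini-Hochberg adjustment (log2 fold change 0.44 ± 0.11 (SE), 95% interval 0.21 to 0.68, adjusted p = 0.00681). With edgeR's quasi-likelihood test on 8 libraries the change was 0.34 and did not pass (adjusted p = 0.0726, Benjamini-Hochberg). Against fed cells the change did not pass (0.15 ± 0.11, adjusted p = 0.344, limma), with an interval of -0.09 to 0.38. Starved minus fed was -0.29 on the log2 scale, without a test.

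CHMP4C, which delays the final cut of cell division when chromatin is caught in the bridge, was low in all groups. CHMP4C (ENSG00000164695, chromosome 8 from 81732448 to 81759515) was at 2.02, 1.77 and 1.85 FPKM in knockdown cells, 1.61, 1.83 and 1.72 FPKM in starved cells, and 1.75, 2.34 and 2.02 FPKM in fed cells. The ranges overlapped in every pair of groups. Of its 50-base windows, 8.70% were shared with other genes, 152 of those 158 with ZFAND1 on the opposite strand. ZFAND1 had 472 to 711 normalized counts where CHMP4C had 41.1 to 56.8. With strand use unknown, the reads of that stretch could not be told apart. Its fold changes did not pass limma with Benjamini-Hochberg adjustment against starved cells (0.08 ± 0.09, adjusted p = 0.499) or against fed cells (-0.07 ± 0.09, adjusted p = 0.603).
CHMP4A (ENSG00000254505, chromosome 14 from 24209615 to 24213830, minus strand) was the 1 member below the filter, at 0.15, 0.59 and 0.29 FPKM in knockdown cells, 0.65, 0.29 and 0.25 FPKM in starved cells, and 0.50, 0.60 and 0.53 FPKM in fed cells. No ordering of the groups could be read from it, and it was not tested. Of the CHMP4A windows, 95.3% occur also in the overlapping transcript AL096870.2, so over most of the gene reads of the overlapping pair could not be told apart, and the part of this in the low level was not tested.

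Of the paralogs CHMP2A and CHMP2B, which recruit VPS4 to the filament, CHMP2A was the one whose libraries separated. CHMP2A (ENSG00000130724, chromosome 19 from 58551566 to 58555105, minus strand) was at 24.19, 25.33 and 24.78 FPKM in knockdown cells, 18.26, 23.25 and 20.97 FPKM in starved cells, and 28.30, 27.99 and 31.42 FPKM in fed cells. The 3 groups did not overlap: fed libraries were highest, knockdown libraries lay in between and starved libraries were lowest. By limma with Benjamini-Hochberg adjustment, the change of knockdown from starved cells did not pass (log2 fold change 0.25 ± 0.09 (SE), 95% interval 0.03 to 0.46, adjusted p = 0.0574), and it passed without starved replicate 2 (adjusted p = 0.0176) and with quantile scaling (adjusted p = 0.0377). The change of knockdown from fed cells did not pass either (-0.23 ± 0.09, interval -0.44 to -0.02, adjusted p = 0.117, limma). Starved minus fed was -0.47 on the log2 scale, without a test.

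CHMP2B, mutated in a familial form of frontotemporal dementia, was at 12.22, 12.61 and 14.37 FPKM in knockdown cells, 14.80, 13.80 and 15.66 FPKM in starved cells, and 13.44, 14.26 and 13.75 FPKM in fed cells. CHMP2B (ENSG00000083937, chromosome 3 from 87227271 to 87255556, plus strand) had overlapping ranges in every pair of groups, and knockdown replicate 3 was the highest of its group. Its change did not pass limma with Benjamini-Hochberg adjustment against starved cells (-0.17 ± 0.09, 95% interval -0.35 to 0.02, adjusted p = 0.140), but did without knockdown replicate 3 (adjusted p = 0.0279) and on normalized counts (adjusted p = 0.0474). Against fed cells it did not pass (-0.08 ± 0.09, interval -0.27 to 0.11, adjusted p = 0.551, limma). The FPKM ratio of CHMP2B to CHMP2A was 0.53 ± 0.05 in knockdown cells, 0.72 ± 0.11 in starved cells and 0.47 ± 0.04 in fed cells (SD, n = 3 each).

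CHMP1A and CHMP1B, which bind IST1 and MIT-domain proteins such as VPS4 and spastin, showed overlapping ranges throughout. CHMP1A (ENSG00000131165, chromosome 16 from 89640816 to 89657738, minus strand) was at 18.29, 18.80 and 16.06 FPKM in knockdown cells, 13.97, 16.62 and 16.04 FPKM in starved cells, and 15.62, 16.40 and 16.22 FPKM in fed cells. Knockdown replicates 1 and 2 were above every other library, and replicate 3 lay among them. The change of CHMP1A did not pass limma with Benjamini-Hochberg adjustment against starved cells (0.18 ± 0.09, 95% interval -0.02 to 0.38, adjusted p = 0.133), and passed without knockdown replicate 3 (adjusted p = 0.0334). Against fed cells it did not pass (0.13 ± 0.09, interval -0.07 to 0.33, adjusted p = 0.336, limma).

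CHMP1B (ENSG00000255112, chromosome 18 from 11851413 to 11854444, plus strand), a gene with 1 exon, was at 7.56, 5.52 and 7.42 FPKM in knockdown cells, 7.02, 6.40 and 6.09 FPKM in starved cells, and 7.13, 5.94 and 5.92 FPKM in fed cells. Replicate spread was as wide as any difference between groups. Of its windows, 18.3% were shared with other genes, 473 of those 551 with the antisense gene CHMP1B-AS1. That gene has no row in the table, and reads there could not be told apart either. Its changes did not pass limma with Benjamini-Hochberg adjustment against starved cells (0.05 ± 0.12, 95% interval -0.21 to 0.32, adjusted p = 0.743) or against fed cells (0.09 ± 0.12, interval -0.18 to 0.36, adjusted p = 0.635). The first of these turned its sign under 4 of the alternatives, as given with the other settings.

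CHMP5, which binds VTA1 and so acts on VPS4, was the second most abundant member. CHMP5 (ENSG00000086065, chromosome 9 from 33264879 to 33282070, plus strand) was at 41.77, 41.79 and 39.72 FPKM in knockdown cells, 44.60, 41.07 and 45.12 FPKM in starved cells, and 38.19, 39.57 and 41.92 FPKM in fed cells. The ranges of all 3 groups overlapped. Its intervals were narrow: -0.25 to 0.09 for knockdown against starved cells (-0.08 ± 0.08, adjusted p = 0.407, limma with Benjamini-Hochberg adjustment) and -0.13 to 0.21 for knockdown against fed cells (0.04 ± 0.08, adjusted p = 0.732).

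**Figure D2:**
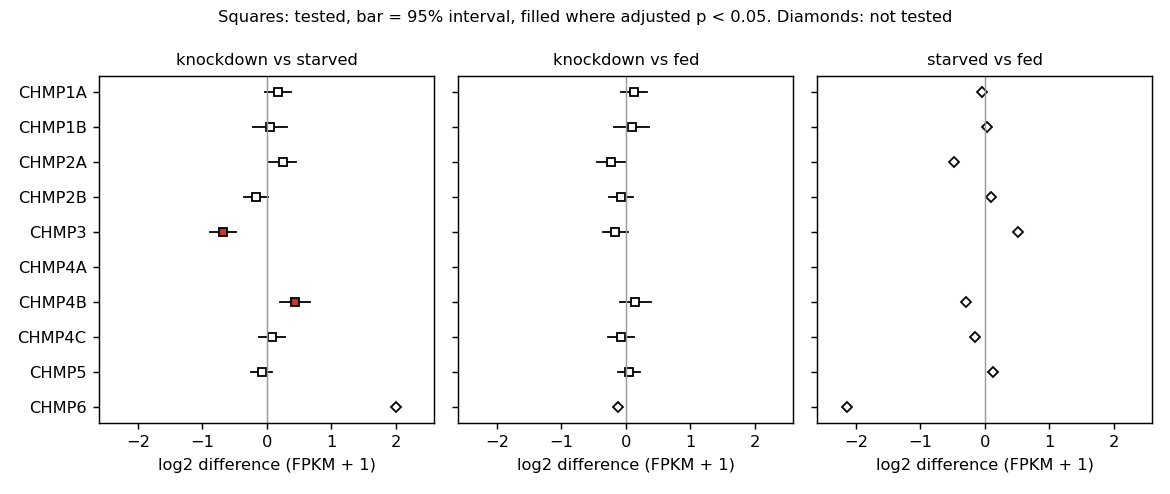
Log2 differences of FPKM + 1 for each member in knockdown against starved, knockdown against fed, and starved against fed cells. Squares are tested values with 95% intervals, filled where the adjusted p of limma passed 0.05, and diamonds are descriptions without a test; CHMP3 at -0.68 and CHMP4B at 0.44 are the filled squares, and CHMP6 lies at 2.01, -0.13 and -2.14.

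Of the 8 members tested, 2 passed limma with Benjamini-Hochberg adjustment between knockdown and starved cells, CHMP4B higher and CHMP3 lower. Among all kept genes 44.5% passed, 25.9% higher and 18.7% lower, beside the members' share of 25%. The count was 1 with edgeR, where 36.7% of all kept genes passed. It was 3 on normalized counts, with quantile scaling and without starved replicate 2, where 46.7%, 45.1% and 45.5% of all kept genes passed. Without knockdown replicate 3 it was 4 of 8, where 48.6% of all kept genes passed, so the members' share was then not below the background. Between knockdown and fed cells 0 of 8 passed, where 18.2% of all kept genes did, 8.43% higher and 9.75% lower. At an unadjusted p under 0.05, 1 member (CHMP2A) would have passed this comparison in limma and 0 in edgeR. The 2 comparisons share the knockdown libraries, and starved against fed cells shares its libraries with both.

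The libraries of starved and fed cells did not overlap for 4 of the 9 kept members, CHMP3 above and CHMP2A, CHMP4B and CHMP6 below, and 57.3% of all kept genes were separated in this way. Between knockdown and starved cells the libraries of 4 of 9 did not overlap, CHMP2A, CHMP4B and CHMP6 above and CHMP3 below, where the share of all kept genes was 49.8%. CHMP6 was picked by its fall in these same starved libraries, so its place in both counts is a description that follows the choice. Between knockdown and fed cells CHMP4B was above and CHMP2A and CHMP3 were below, 3 of 9, where the share of all kept genes was 40.8%. Leaving out CHMP6, the median log2 difference of the 8 kept members was 0.07 for knockdown against starved, -0.02 for knockdown against fed and -0.01 for starved against fed cells. The same medians over all kept genes were 0.02, -0.03 and -0.05.

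The order of levels, per length of gene model, began alike in the 3 groups: CHMP4B, CHMP5, CHMP2A, CHMP1A and CHMP2B, from high to low. In knockdown and fed cells CHMP6, CHMP1B, CHMP3, CHMP4C and CHMP4A followed. In starved cells the lower places read CHMP3, CHMP1B, CHMP4C, CHMP6 and CHMP4A, so that CHMP6 dropped below CHMP4C. Neighbours overlapped between libraries in starved cells alone, for CHMP1A with CHMP2B and for CHMP4C with CHMP6. Levels between genes rest on the deposited lengths, which for CHMP1A (7228 bases) and CHMP2B (8243 bases) exceed the longest coding transcripts of 2483 and 2557 bases, so their FPKM would be higher per length of that transcript.

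Summed over the 10 members, levels were 197 ± 4.93 FPKM in knockdown cells, 170.5 ± 8.80 FPKM in starved cells and 193 ± 6.76 FPKM in fed cells (SD, n = 3 each). Starved libraries, at 164 to 181 FPKM, were below the knockdown and the fed libraries, which overlapped. Normalized counts are scaled by the library's size factor in place of its total, and are not divided by length. On that scale the sums were 7889 ± 182 in knockdown cells, 7841 ± 509 in starved cells and 7679 ± 326 in fed cells, and all 3 groups overlapped. The total of starved cells was thus below the others in FPKM and not in normalized counts.

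CHMP6 made up 4.39% ± 0.24 of the summed FPKM in knockdown cells, 0.82% ± 0.12 in starved cells and 4.93% ± 0.05 in fed cells. CHMP3 made up 2.31% ± 0.28, 4.63% ± 0.24 and 2.69% ± 0.11 in knockdown, starved and fed cells. CHMP5 held 20.8% ± 0.55, 25.7% ± 2.52 and 20.6% ± 0.40, and CHMP4B held 39.8% ± 1.11, 33.8% ± 3.31 and 36.6% ± 0.68, in the same order of groups. Shares add to a whole, so a fall of one member raises the shares of the others.

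**Figure D3:**
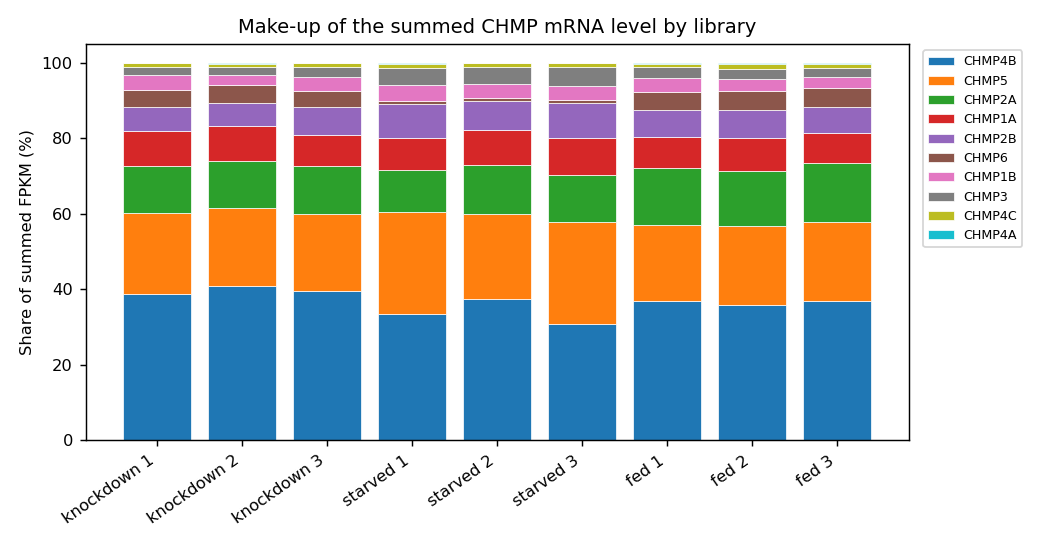
Share of each CHMP gene in the summed FPKM of the 10 members (y axis, percent) for each library, stacked from the most to the least abundant in fed cells. CHMP6 is a band of about 4.39% and 4.93% in knockdown and fed libraries and shrinks to 0.82% in starved libraries, while the CHMP3 band is widest there.

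Genes outside the family came closer to the profile of CHMP6 over the libraries than any other member did. As a measure of likeness, each gene's log2(FPKM + 1) was centred over the 9 libraries, and the root mean square difference from CHMP6 was taken. The 5 nearest kept genes were COQ3 (0.10), a methyltransferase of coenzyme Q synthesis, MEN1 (0.12), which encodes the tumour suppressor menin, POFUT1 (0.14), a protein O-fucosyltransferase, IFT46 (0.17), a protein of cilium transport, and EEFSEC (0.17), the elongation factor for selenocysteine. COQ3 averaged 19.9 ± 2.89 FPKM in knockdown cells, 4.62 ± 0.42 FPKM in starved cells and 25.2 ± 0.52 FPKM in fed cells (SD, n = 3 each). Among the members, the nearest were CHMP2A and CHMP4B at 0.81 each, with 17.9% and 18.4% of kept genes closer to CHMP6. The farthest was CHMP3 at 1.26, with 94.7% of kept genes closer to CHMP6 than CHMP3 was. The distances include the libraries that picked CHMP6 and are a description.

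**Figure D4:**
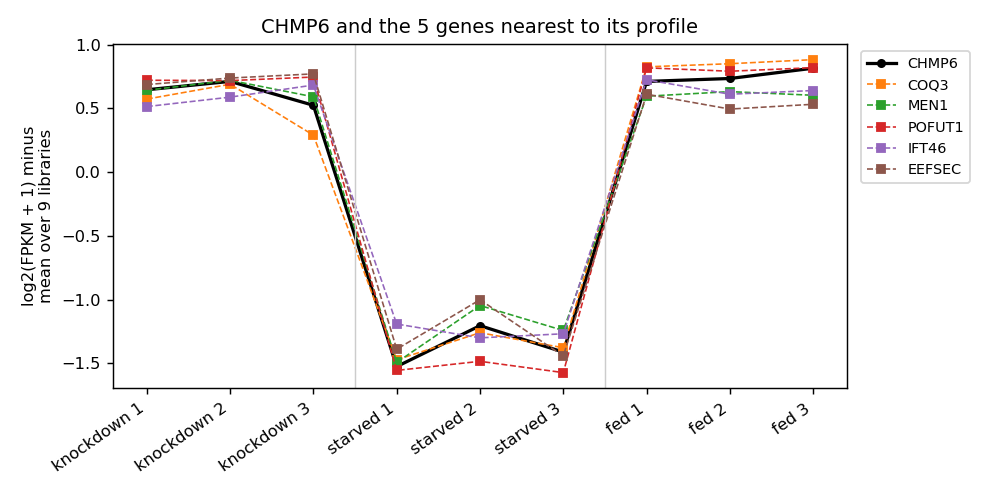
Log2(FPKM + 1) of CHMP6 (black) and of the 5 genes nearest to it, each minus its own mean over the 9 libraries, by library; lines only join the points of a gene. All 6 genes lie below their means in the 3 starved libraries and above them in the 3 knockdown and 3 fed libraries, with distances from CHMP6 of 0.10 to 0.17.

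The rest of the ESCRT pathway was followed in 34 genes of 7 lists, all of them kept. Between knockdown and starved cells 12 genes passed limma with Benjamini-Hochberg adjustment, 8 higher and 4 lower, which is 35.3% against 44.5% of all kept genes. On normalized counts and with median ratio scaling the split was 7 higher and 7 lower. Between starved and fed cells 10 passed, 5 higher and 5 lower, which is 29.4% against 41.1% of all kept genes (15.1% higher and 26.0% lower), and on normalized counts and with median ratio scaling the split was 9 higher and 5 lower. Between knockdown and fed cells 7 passed, all higher, which is 20.6% against 18.2% of all kept genes (8.43% higher and 9.75% lower). That count was 2 without fed replicate 1, 3 without fed replicate 2, 3 without fed replicate 3 and 4 without knockdown replicate 1. The share of all kept genes that passed was 7.4%, 8.79%, 9.46% and 13.8% in these settings. STAMBPL1 is counted in both comparisons with starved cells, though all its starved libraries were under 1 FPKM. It was kept only through the groups where it was high, which limits those calls.

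Without knockdown replicate 3 the counts of other ESCRT genes were 13 between knockdown and starved, 7 between knockdown and fed, and 15 between starved and fed cells. Between knockdown and starved cells PTPN23 and CEP55 then passed and MVB12A no longer did. Between knockdown and fed cells CC2D1B then passed and IST1 no longer did. Between starved and fed cells VPS28, VPS36, VPS4A, MITD1 and LEMD2 then passed as well, with adjusted p from 0.00777 to 0.0480 in limma with Benjamini-Hochberg adjustment.

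ESCRT-II is the neighbour of CHMP6, and VPS25 is its subunit that binds CHMP6. VPS25 was at 61.55, 62.39 and 52.47 FPKM in knockdown cells, 32.36, 40.18 and 31.95 FPKM in starved cells, and 52.93, 51.50 and 55.04 FPKM in fed cells. Starved libraries were below all others, and the knockdown and fed ranges overlapped. By limma with Benjamini-Hochberg adjustment VPS25 rose in knockdown against starved cells (0.74 ± 0.11, adjusted p = 0.000355) and fell in starved against fed cells (-0.60 ± 0.11, adjusted p = 0.00132). It was 1 of 3 ESCRT-II genes to pass in each of these comparisons, and 0 of 3 passed between knockdown and fed cells. SNF8 and VPS36 did not pass in any of the 3 comparisons with all 9 libraries. For VPS36 between starved and fed cells (-0.33 ± 0.13, adjusted p = 0.0673, limma with Benjamini-Hochberg adjustment) the adjusted p ran from 0.0468 to 0.204 over the alternatives, and it passed without knockdown replicate 2 or 3. Between knockdown and fed cells VPS36 passed without starved replicate 2 (adjusted p = 0.0379, limma).

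In ESCRT-0, which gathers ubiquitin-tagged cargo on endosomes, HGS was the 1 of 3 genes that passed with all 9 libraries. STAM did not pass between knockdown and starved cells (0.30 ± 0.11, adjusted p = 0.0515, limma with Benjamini-Hochberg adjustment). It did with a replicate block and without starved replicate 3 or knockdown replicate 2. HGS was at 12.06, 12.69 and 11.82 FPKM in knockdown cells, 6.63, 6.83 and 6.93 FPKM in starved cells, and 9.05, 9.22 and 9.78 FPKM in fed cells. The groups did not overlap, with knockdown libraries highest and starved libraries lowest. Its changes by limma with Benjamini-Hochberg adjustment were 0.76 ± 0.07 for knockdown against starved (adjusted p = 2.98e-05), 0.35 ± 0.07 for knockdown against fed (adjusted p = 0.0104, and 0.0565 without fed replicate 1) and -0.41 ± 0.07 for starved against fed cells (adjusted p = 0.00139).

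In ESCRT-I, which bridges ESCRT-0 and the later complexes, 5 of 10 genes passed between knockdown and starved cells (3 higher, 2 lower), 2 higher between knockdown and fed cells, and 4 between starved and fed cells (2 higher, 2 lower). Among these, MVB12A, lower in knockdown than in starved cells (adjusted p = 0.0487, limma), was lost in 12 of the 20 alternatives. MVB12B, lower in starved than in fed cells (adjusted p = 0.0183, limma), was lost in 5, with edgeR and quantile scaling among them. UBAP1, a subunit of the endosomal form of ESCRT-I, was at 35.29, 35.57 and 40.12 FPKM in knockdown cells, 25.67, 28.42 and 29.56 FPKM in starved cells, and 22.12, 21.97 and 21.12 FPKM in fed cells. The 3 groups did not overlap, and unlike CHMP6 the starved libraries lay between the others. UBAP1 passed limma with Benjamini-Hochberg adjustment in knockdown against starved (0.40 ± 0.08, adjusted p = 0.00361), knockdown against fed (0.74 ± 0.08, adjusted p = 0.000430) and starved against fed cells (0.34 ± 0.08, adjusted p = 0.00823).

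VPS37D, one of 4 alternative VPS37 subunits, was at 2.99, 4.30 and 1.83 FPKM in knockdown cells, 0.72, 1.21 and 1.40 FPKM in starved cells, and 3.11, 3.31 and 4.18 FPKM in fed cells. Starved libraries were below all others, with a wide spread among knockdown libraries. It rose in knockdown against starved cells (0.90 ± 0.21, adjusted p = 0.00561, limma with Benjamini-Hochberg adjustment) and fell in starved against fed cells (-1.11 ± 0.21, adjusted p = 0.00187).
The paralog VPS37B was at 5.61, 5.38 and 5.17 FPKM in knockdown cells, 2.83, 4.11 and 3.32 FPKM in starved cells, and 3.32, 3.83 and 3.70 FPKM in fed cells. Here the knockdown libraries stood above the other 6, and starved and fed ranges overlapped. VPS37B rose in knockdown cells against starved (0.54 ± 0.11, adjusted p = 0.00268, limma with Benjamini-Hochberg adjustment) and fed cells (0.47 ± 0.11, adjusted p = 0.0166, and 0.0782 without fed replicate 1). The paralog VPS37C ran the other way, with its starved libraries above all others. By limma with Benjamini-Hochberg adjustment it rose in starved against fed cells (0.53 ± 0.09, adjusted p = 0.000997). It fell in knockdown against starved cells (-0.32 ± 0.09, adjusted p = 0.0149, and not past the threshold without starved replicate 1).

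The ESCRT-III relatives outside the family list moved in opposite directions between knockdown and starved cells. CHMP7, which acts with LEMD2 at the nuclear envelope, was at 9.44, 9.98 and 9.93 FPKM in knockdown cells, 13.20, 13.62 and 14.80 FPKM in starved cells, and 10.43, 9.85 and 11.10 FPKM in fed cells. As for CHMP3, its starved libraries were above all others. CHMP7 fell in knockdown against starved cells (-0.46 ± 0.08, adjusted p = 0.00105, limma with Benjamini-Hochberg adjustment) and rose in starved against fed cells (0.38 ± 0.08, adjusted p = 0.00365).
IST1, the partner of CHMP1 proteins, was at 23.98, 24.67 and 26.87 FPKM in knockdown cells, 19.75, 20.45 and 20.71 FPKM in starved cells, and 21.74, 21.16 and 20.52 FPKM in fed cells. Knockdown libraries were above the other 6. IST1 rose in knockdown against starved cells (0.30 ± 0.07, adjusted p = 0.00862, limma with Benjamini-Hochberg adjustment), a call lost with edgeR (adjusted p = 0.0718). Against fed cells it barely passed (0.24 ± 0.07, adjusted p = 0.0486, limma), with adjusted p from 0.0248 to 0.146 over the alternatives. That call was lost in 14 of the 20 alternatives, among them those without any one of the fed or knockdown libraries or without starved replicate 1 or 3.

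Among VPS4 and its MIT-domain partners 1 of 5 genes passed between knockdown and starved cells and 0 of 5 in the other comparisons, with all 9 libraries on the FPKM scale. On normalized counts and with median ratio scaling VPS4B and MITD1 also passed, both between starved and fed cells and between knockdown and starved cells, where VPS4A no longer did. Without starved replicate 2, VPS4B and MITD1 passed between knockdown and starved cells, and MITD1 also between starved and fed cells. VPS4A, one of the paired ATPases that take the filament apart, was at 10.73, 11.15 and 8.20 FPKM in knockdown cells, 7.79, 7.96 and 7.50 FPKM in starved cells, and 9.14, 8.76 and 9.85 FPKM in fed cells. Knockdown libraries were above the starved ones, replicate 3 by the least. VPS4A was higher in knockdown than in starved cells (0.32 ± 0.11, adjusted p = 0.0330, limma with Benjamini-Hochberg adjustment), with adjusted p from 0.00109 to 0.111 over the alternatives. This call was lost in 10 of the 20 alternatives, among them edgeR, no filter and only the 2 groups compared. Leaving out any one of knockdown replicate 1, knockdown replicate 2, starved replicate 1, starved replicate 3 or fed replicate 1 also ended it.

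Of 8 Bro1-family proteins and adaptors, 1 fell in knockdown against starved cells, 3 were higher in knockdown than in fed cells, and 2 were higher in starved than in fed cells. Among these, the knockdown against fed call of PTPN23 (adjusted p = 0.0489, limma) was lost in 12 of the 20 alternatives. The call of CC2D1A was lost in 10 of 20 between starved and fed cells (adjusted p = 0.0428, limma) and in 4 of 20 between knockdown and fed cells. BROX, a Bro1-domain protein that binds CHMP4, fell in knockdown against starved cells (-0.47 ± 0.16, adjusted p = 0.0326, limma with Benjamini-Hochberg adjustment), with adjusted p from 0.00806 to 0.128 over the alternatives. This call was lost in 7 of the 20 alternatives. These were edgeR, TPM, no filter, only the 2 groups compared, and leaving out starved replicate 1, starved replicate 3 or knockdown replicate 2. BROX was at 12.01, 8.44 and 10.99 FPKM in knockdown cells and 17.54, 11.84 and 15.53 FPKM in starved cells, so the ranges overlapped. LEMD2, the inner nuclear membrane partner of CHMP7, was higher in knockdown than in fed cells (0.47 ± 0.12, adjusted p = 0.0227, limma with Benjamini-Hochberg adjustment), with adjusted p from 0.00631 to 0.0848 over the alternatives. That call was lost with no filter and without fed replicate 2, fed replicate 3, knockdown replicate 1 or knockdown replicate 2. CC2D1B, a CHMP4-binding regulator, was higher in starved than in fed cells (0.33 ± 0.08, adjusted p = 0.00772, limma with Benjamini-Hochberg adjustment).

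Of 3 endosomal deubiquitinases, STAMBPL1, a relative of the ubiquitin chain protease AMSH, was the 1 that passed. STAMBPL1 was at 1.41, 1.18 and 1.53 FPKM in knockdown cells, 0.56, 0.48 and 0.57 FPKM in starved cells, and 1.86, 1.27 and 1.20 FPKM in fed cells. The starved libraries were below all others and all under 1 FPKM. STAMBPL1 thus passed the filter only through the groups where it was high, which limits its tests against starved cells. It rose in knockdown against starved cells (0.63 ± 0.11, adjusted p = 0.00125, limma with Benjamini-Hochberg adjustment) and fell in starved against fed cells (-0.66 ± 0.11, adjusted p = 0.000975).

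**Figure D5:**
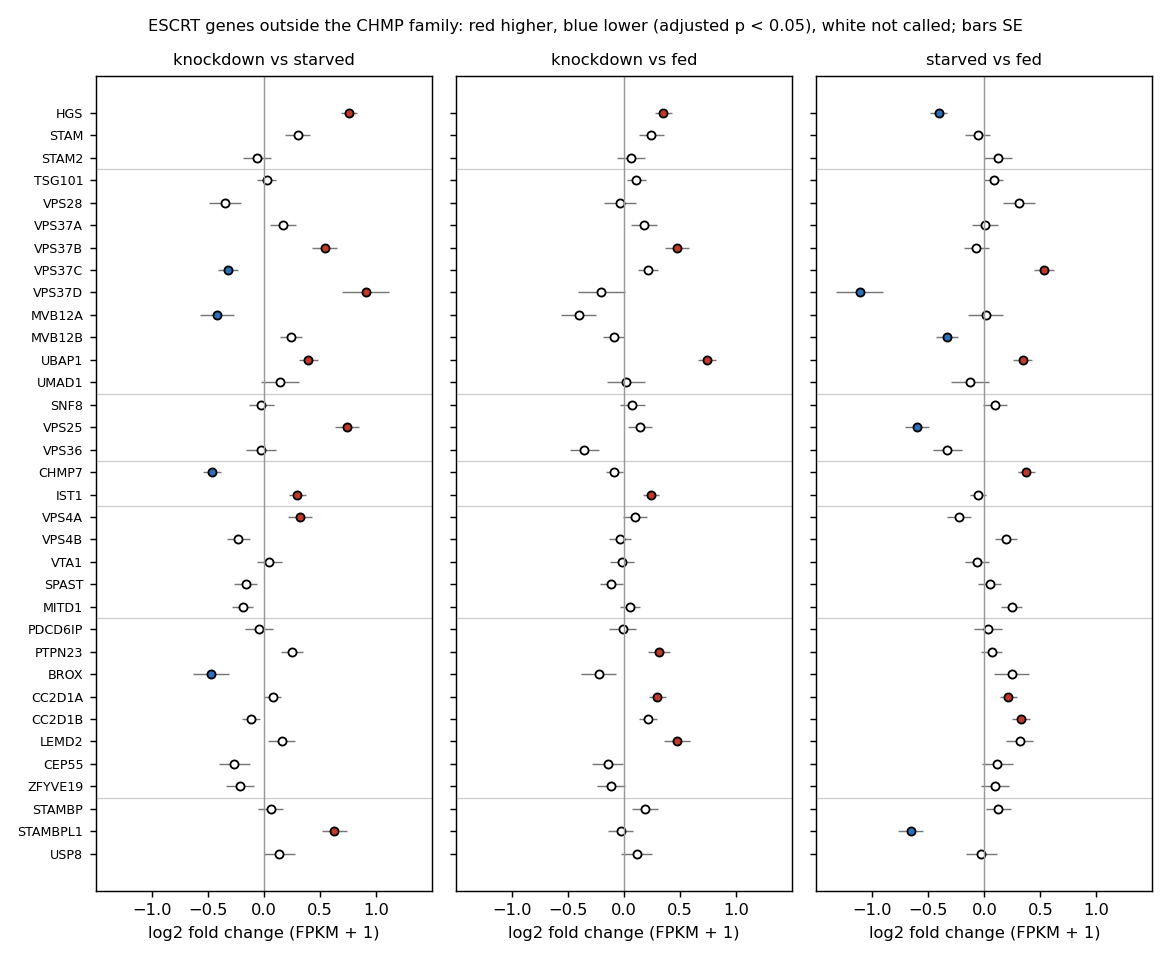
Log2 fold changes of FPKM + 1 with standard errors for the 34 ESCRT genes outside the member list, in 7 lists separated by lines, from ESCRT-0 at the top to deubiquitinases at the bottom. CHMP7, a CHMP gene that is not in the member list, is among them. Red marks higher and blue lower at an adjusted p under 0.05 in limma: 8 red and 4 blue for knockdown against starved, 7 red for knockdown against fed, and 5 red and 5 blue for starved against fed cells. STAMBPL1 is coloured in both comparisons with starved cells, where its libraries were all under the filter level.

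Promoters from RefSeq on GRCh38.p14, 250 bases before to 50 bases after the start site, matched 7 of the 10 members; CHMP3, CHMP4C and CHMP6 were not matched. CHMP1B held the word TGACGTCA, the full cyclic AMP response element, which 1.85% of all 35116 promoters hold. CHMP4A held the word CACGTG, an E-box, which 7.26% of all promoters hold. Both words read the same on either strand and do not overlap each other. Neither word lay in the promoters of CHMP2A or CHMP4B, which says only that these letters are not in those windows.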

How the data were processed

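RNA libraries of 293T cells were made with a SMARTER mRNA kit, per the labels' protocols. The values the authors deposited are a signal per gene, which the table calls FPKM; in each of the 9 libraries they were whole multiples of 1 step (100% of values, relative tolerance 1e-08), so they are read counts divided by 1 size factor per library. The plan had been written for FPKM. In starved replicate 1 the step was 1.0015, so its reads and normalized counts nearly coincide. Its values were whole multiples too. Leaving its reads out of edgeR and of the read counts given was a choice that the data did not require. Aligner and counter: not given in the sources used here. Mouse build mm10 is named in the submitters' processing notes, while identifiers and positions are human and were matched to GENCODE 29 (GRCh38). Totals of 11775367 to 15231651 reads make counting error small except for low genes such as CHMP4A.

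FPKM was computed from each value, its library's sum and the deposited length. Genes that reached 1 FPKM in 3 or more libraries were kept (11133, with 8833 left out). Log2(FPKM + 1) was tested with limma (trend, 3 group means over 9 libraries, two-sided), adjusted by Benjamini-Hochberg at 0.05 over all kept genes; edgeR's quasi-likelihood test on recovered reads of 8 libraries was an alternative. The fit was also tested on simulated data. Members and lists were chosen with earlier results of these data known. The text names all members, from each ESCRT list up to 3 genes with the largest changes among those that passed, SRSF1 and the 5 genes nearest to CHMP6. ASB13, ZNF22, RPTOR, BAIAP2, STAM, SNF8, VPS36, VPS28, VPS4B, MITD1, MVB12A, PTPN23 and CEP55 were named after their values were seen. So were VPS37C, MVB12B and CC2D1A. Other settings were a pseudocount of 0.1, normalized counts, no filter or 5 FPKM, TPM, median ratio and quantile scaling, no trend, only the 2 groups compared, a replicate block, and leaving out each library. Tools were Python 3.11.15 with Biopython 1.88, pandas 2.3.3, numpy 2.4.6 and matplotlib 3.10.9, and R 4.3.3 with edgeR 4.0.16 and limma 3.58.1.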

Additional observations from a re-analysis of the deposited data

How the results depend on the processing

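The log2 difference of CHMP6 between starved and fed cells, -2.14 as reported, was -2.69 with a pseudocount of 0.1, -2.66 on normalized counts, -2.59 with TPM, -1.99 with quantile scaling and -2.55 with edgeR, and -2.22 to -2.06 when 1 library was left out. The 2 members called between knockdown and starved cells became 1 with edgeR and 2 to 4 when 1 library was left out. Between knockdown and fed cells 0 members passed in all 20 alternatives. Other ESCRT genes called between knockdown and fed cells, 7 as reported, numbered 4 with TPM and 2 to 8 when 1 library was left out. The corresponding ranges were 8 to 16 between knockdown and starved cells and 8 to 15 between starved and fed cells. The knockdown against starved change of CHMP1B, 0.05 as reported, was -0.00639 on normalized counts, -0.00164 with median ratio scaling, and -0.0161 to 0.18 when 1 library was left out, below 0 without knockdown replicate 1 or 3 (-0.00367), and that of CHMP4C was -0.0709 with quantile scaling; the cause was not tested.

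Of all calls between starved and fed cells 36.8% were higher in starved cells, against 49.97% on normalized counts, 49.4% with median ratio and 50.3% with quantile scaling; between knockdown and starved cells 58.1% were higher in knockdown cells, against 48.4%, 48.9% and 50.1%. Correlations of deviations between libraries of the same replicate number were 0.09, 0.62 and 0.37 for knockdown with starved cells. They were 0.35, -0.28 and -0.56 for starved with fed cells, and 0.02, -0.29 and -0.42 for knockdown with fed cells. Whether equal replicate numbers mark libraries handled together was not tested. With the replicate number as a block, 2 and 0 members passed in the knockdown comparisons with starved and with fed cells, and 13, 5 and 11 other ESCRT genes passed between knockdown and starved, knockdown and fed, and starved and fed cells. Starved replicate 2, whose FPKM set the upper end for CHMP6, CHMP2A and CHMP4B, was the library whose loss brought CHMP2A past the threshold. CHMP4A, at 4 to 21 reads, is at the limit of this depth.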

Other observations

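The kept genes next to CHMP6 on chromosome 17 were looked at after the values were seen. RPTOR, which encodes the raptor subunit of the growth kinase complex mTORC1 and lies before CHMP6, averaged 9.37 ± 0.40 FPKM in knockdown cells, 4.79 ± 0.25 FPKM in starved cells and 7.92 ± 0.92 FPKM in fed cells (SD, n = 3 each). Its starved libraries, like those of CHMP6, were below all others. BAIAP2, on the other side, which encodes an adaptor of the actin cytoskeleton, averaged 3.60 ± 0.36 FPKM in knockdown cells, 2.85 ± 0.08 FPKM in starved cells and 2.70 ± 0.15 FPKM in fed cells.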
